A study of Mus musculus with 8 samples.

Results

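Translational efficiency is the number of ribosome footprints on an mRNA relative to the amount of that mRNA in the cell. It was compared here between Mettl5 KO and WT cells of the mouse melanoma line B16. For each gene the change of efficiency was the interaction of genotype (KO or WT) with the kind of library (footprints or input RNA) in 1 model over 8 libraries. The results concentrate on the 4544 genes, of 10453 listed (43.5%), with a mean of at least 200 normalized reads in both the 4 footprint and the 4 input libraries, called well-covered here. The others were under 200 in input only (804 genes), in footprints only (1267) or in both (3838). Just inside the limit were Pyroxd1, BC030867 and Mreg, with a lower of their 2 means of 200.1 normalized reads each, and just outside were Mastl, Traf6 and Sox4, at 199.95, 199.9 and 199.8.

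There were 4 groups of 2 libraries each: footprints from KO cells, footprints from WT cells, input RNA from KO cells and input RNA from WT cells. B16 is an established pigmented melanoma line, and per the labels Mettl5 had been targeted by CRISPR/Cas9 in the KO cells. Per the labels all groups shared their handling: growth in DMEM with 10% FBS and penicillin and streptomycin, cycloheximide, and lysis in a polysome buffer. Cycloheximide stops cytosolic ribosomes on mRNA. Depletion of ribosomal RNA was shared too, although the labels also call the RNA polyadenylated. The sample labels name a small RNA library kit and the series' design text a ribosome profiling kit, and which was used is unsettled. The labels give neither the number of KO clones nor a separate culture for each library, so the tests cover the spread among these 8 libraries and no more, and that spread may be technical.

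Reads on listed genes numbered 2344656 and 2279456 in KO footprints and 3098930 and 2862517 in WT footprints, and 18823632 and 14835551 in KO input and 14402586 and 11927567 in WT input. A well-covered gene had a median of 220 and 215 reads in the KO footprint libraries, 298 and 277 in the WT footprint libraries, and between 1172 and 1810 in an input library, and at least 49 reads in any footprint library. All 8 melanocyte markers (Tyr, Tyrp1, Dct, Slc45a2, Mlana, Pmel, Sox10 and Mitf) were well-covered, with a summed input level of 82168 and 81761 normalized reads in KO and 72303 and 72724 in WT. Of 7 fibroblast markers 5 were listed, with a sum between 162 and 167 over the input libraries. Of 6 leukocyte markers only Cd68 was listed (7.03 to 8.78 normalized reads), and of 7 epithelial and endothelial markers Cdh1 and Vwf (10.4 to 16.9 together).

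Mettl5 itself (chr2:69871195-69886634, coordinates from RefSeq on GRCm38.p6) was not well-covered. It had 109 and 112 normalized footprint reads in KO and 91.1 and 113 in WT, and 75.8 and 95.7 normalized input reads in KO and 114 and 111 in WT. Input was lower in both KO libraries than in both WT libraries, and footprints overlapped between the genotypes. Its efficiency differed by 0.52 ± 0.24 on the log2 scale (SE of the fit), with a limma adjusted p = 0.216. A small insertion or deletion is not visible in reads counted per gene, so these values say nothing of the edit itself, and KO is used as the libraries are labelled. The gene of its partner protein, Trmt112, was not analysed here.

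METTL5 places an N6-methyladenosine on the RNA of the small ribosomal subunit, close to where the mRNA is decoded. How often a given mRNA is initiated depends on that subunit, on initiation factors and on features of the mRNA. In the integrated stress response, phosphorylation of the initiation factor eIF2 lowers general initiation while the mRNA of the transcription factor ATF4 is translated more, through short upstream reading frames, and ATF4 then raises transcription of genes of amino acid supply.

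Efficiency differed in many well-covered genes, by small amounts. With limma and Benjamini-Hochberg adjustment over all 10443 genes tested, 9.78% of them passed an adjusted p of 0.05, with 5.11% higher and 4.66% lower in KO. Among well-covered genes 819 of 4544 passed (18.0%). Efficiency was higher in KO for 457 (10.1%) and lower for 362 (7.97%). Of the 5899 tested genes that were not well-covered 3.42% passed, with 1.31% higher and 2.12% lower. The median log2 change of well-covered genes was 0.030, with quartiles of -0.13 and 0.18, and changes over 1.5-fold were seen in 38 genes upward and 76 downward. Over 2-fold, there were 2 upward and 8 downward. Genes with higher efficiency had a median change of 0.35 in efficiency, -0.11 in input and 0.25 in footprints. Genes with lower efficiency had -0.40, 0.12 and -0.28. An efficiency change is the footprint change minus the input change over the same libraries, so these values stand side by side and do not support each other.

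These counts rest on a variance estimate that follows a trend on expression level. When that trend was left out of limma, 24 well-covered genes were higher and 50 lower, and 74 of the 819 calls remained. With edgeR on the recovered reads 770 of the 819 were also called in the same direction, and with DESeq2 740. Leaving out an input library lowered the counts by more than 1.5 times: higher calls were 185 and 203 without KO input replicate 1 and 2 and 197 and 190 without WT input replicate 1 and 2, and lower calls were 190, 182, 199 and 193 in the same order.

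**Figure D1:**
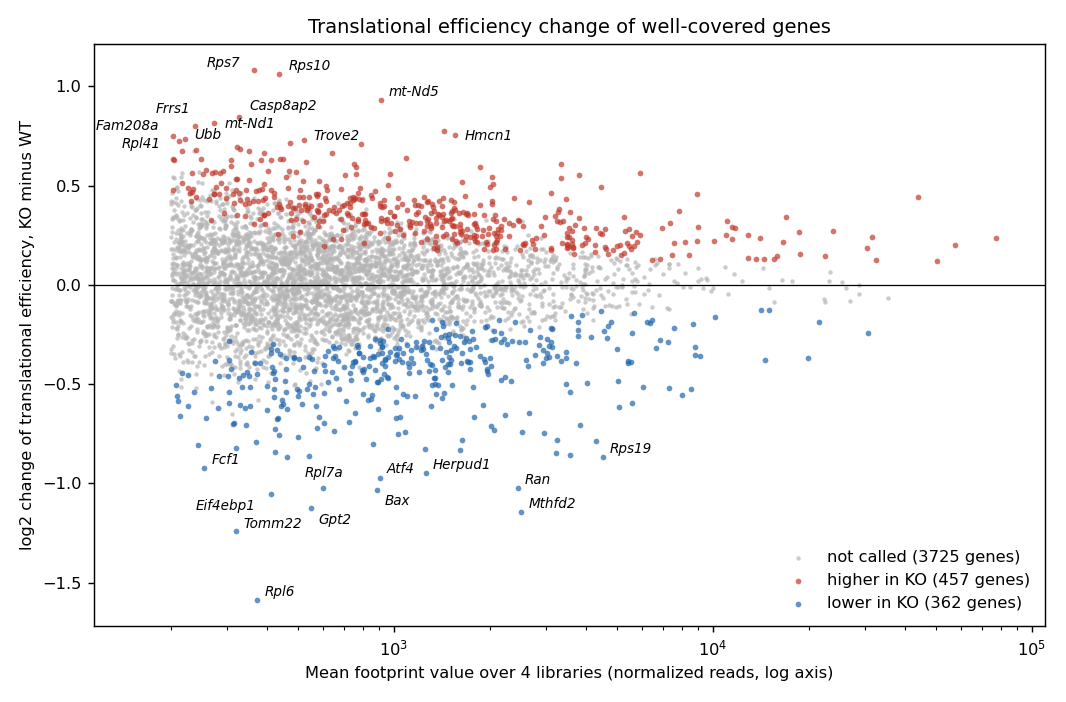
Log2 change of translational efficiency, KO minus WT (y axis), against the mean footprint value over 4 libraries in normalized reads (x axis, log scale) for the 4544 well-covered genes, 1 point each. Red points are the 457 genes with higher efficiency in KO and blue points the 362 with lower efficiency (limma adjusted p under 0.05), and names mark genes with the largest changes each way, from Rps7 at 1.08 to Rpl6 at -1.58.

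Genes of the integrated stress response had lower efficiency in KO. Of 19 well-covered genes of this list, which holds Atf4 and targets of ATF4, 17 fell and 0 rose, with a median log2 change of -0.43 against 0.030 for all well-covered genes. Efficiency fell for 7.97% and rose for 10.1% of all well-covered genes. In input RNA 16 of the 19 were higher in KO and 0 lower, against 8.41% and 7.75% of all well-covered genes, and in footprints 1 was higher and 10 lower, against 18.6% and 14.5%. The list had a median input change of 0.35 and a median footprint change of -0.13. Without the variance trend 7 fell, and 15 to 17 fell when any 1 library was left out.

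Atf4 (chr15:80255184-80257545), the transcription factor of the response, had 694 and 750.3 normalized footprint reads in KO, against 1026 and 1147 in WT. Its input held 1631 and 1676 normalized reads in KO, against 1278 and 1251 in WT. Footprints were lower in both KO libraries and input was higher in both, so the ratio of footprints to input was 0.437 in KO and 0.859 in WT. The log2 change of efficiency was -0.97 ± 0.083 (limma adjusted p = 0.000103). Values are per gene, so footprints on the upstream reading frames of Atf4 and on its protein-coding frame cannot be told apart. Eif4ebp1, which encodes an inhibitor of the cap-binding factor eIF4E, had 357 and 369 footprint reads in KO against 459.9 and 467 in WT, and 693 and 708 input reads in KO against 415 and 446 in WT. Its efficiency fell by 1.05 on the log2 scale (limma adjusted p = 0.000101).

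Enzymes that make serine, glycine and one-carbon units were among the genes that fell. Mthfd2 (chr6:83305704-83326011), a mitochondrial enzyme of folate metabolism, had 1925 and 1758 footprint reads in KO, against 3281 and 3097 in WT, while its input held 1436 and 1461 in KO, against 1126 and 1149 in WT. Neither kind of library overlapped between the genotypes, and the directions were opposite. Its ratio of footprints to input was 1.27 in KO and 2.80 in WT, a log2 change of -1.14 ± 0.066 (limma adjusted p = 1.13e-05). Its mitochondrial partner Shmt2 (-0.39) fell as well, as did Psat1 (-0.49), Psph (-0.43) and Phgdh (-0.34) of serine synthesis and Aldh1l2 (-0.67), which oxidises formyl-tetrahydrofolate. The call for Phgdh was lost without any 1 of the 4 input libraries.

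Other amino acid enzymes differed in which kind of library had moved. For Gpt2 (chr8:85492576-85528902), the mitochondrial alanine aminotransferase, footprints were 594 and 558 in KO against 538 and 517 in WT, and input 490.1 and 468 in KO against 196 and 205 in WT. Input was more than doubled and footprints differed little (limma adjusted p = 0.223), which gave an efficiency change of -1.12 ± 0.098 (limma adjusted p = 0.00011). Asns, asparagine synthetase, had 2585 and 2608 footprint reads in KO, against 3298 and 3349.7 in WT, and 1033 and 1063 input reads in KO, against 787 and 815 in WT. Its efficiency fell by 0.74 (limma adjusted p = 2.09e-05). Aldh18a1 of proline synthesis fell by 0.73, with a footprint change of -0.11 that did not pass (adjusted p = 0.0593). Got1, a cytosolic aspartate aminotransferase (-0.04), and Xpot, an exporter of tRNA (-0.05), were the 2 well-covered members that were not called.

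Amino acid transporters of the list fell as well. The log2 changes were -0.41 for Slc7a5 and -0.34 for Slc3a2, the 2 chains of the large neutral amino acid exchanger, -0.33 for the cationic transporter Slc7a1, and -0.39 each for the glutamine transporters Slc38a2 and Slc1a5. Slc1a5 was not called without WT footprint replicate 1 or any 1 input library. Slc38a2 had 5213 and 5139.7 footprint reads in KO, against 5962 and 5888 in WT, and 2460.2 and 2451 input reads in KO, against 2149.6 and 2144 in WT. Herpud1 (chr8:94386429-94395371), a membrane protein of the pathway that clears misfolded proteins from the endoplasmic reticulum, had 1357 and 1341 footprint reads in KO against 1147 and 1189 in WT, and 725 and 701 input reads in KO against 309 and 331 in WT. Both were higher in KO, input by more (log2 1.16) than footprints (0.21), so efficiency fell by 0.95. Of the 20 list members tested that were not well-covered, 9 also had lower efficiency, among them Chac1 (-2.86), Trib3 (-1.99), Slc7a11 (-1.90), Sesn2 (-1.37) and Ddit4 (-1.11). Of all tested genes that were not well-covered 2.12% fell and 1.31% rose.

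**Figure D2:**
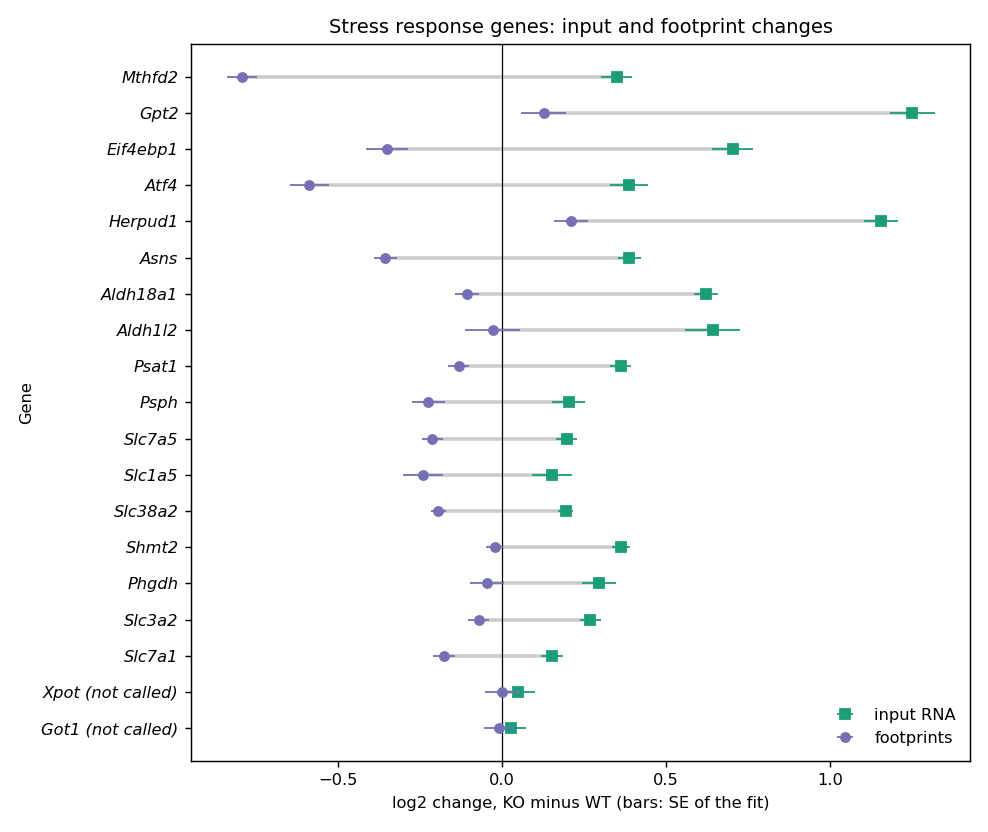
Log2 changes, KO minus WT (x axis), of input RNA (green squares) and ribosome footprints (purple circles) for the 19 well-covered genes of the stress response list (y axis), with bars for the SE of the fit. The grey line between the symbols is the efficiency change, and the input symbol lies to the right of the footprint symbol in all 19, by the most in Mthfd2 (1.14) and the least in Got1 (0.04).

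Aminoacyl-tRNA synthetases, which load tRNAs and of which several are ATF4 targets, split into members that fell and members that did not change detectably. All 20 cytosolic synthetases tested were well-covered, and 9 fell and 0 rose, with a median of -0.08. Cars (cysteine) changed by -0.83 ± 0.066, Sars (serine) by -0.78 ± 0.042, Aars (alanine) by -0.52 ± 0.036 and Yars (tyrosine) by -0.46 ± 0.057, and Nars, Gars, Iars, Tars and Lars fell by between 0.28 and 0.39. Sars had 3674 and 3657 footprint reads in KO, against 4832 and 5000.3 in WT, and 1752 and 1817 input reads in KO, against 1388 and 1391 in WT. Farsa, a chain of the phenylalanine enzyme, had higher input (0.46) and higher footprints (0.62) in KO, and its efficiency change of 0.16 did not pass (limma adjusted p = 0.121). Changes of Eprs (-0.01), Qars (0.00), Vars (0.04) and Kars (0.07) lay within 0.1 of 0. Input was higher in KO for 13 of the 20 and lower for 0. Among all well-covered genes 10.1% rose and 7.97% fell in efficiency, and input was higher for 8.41% and lower for 7.75%. Calls numbered 3 without the variance trend and 7 to 9 with any 1 library left out, and Tars and Lars were each lost without KO input replicate 1 and without 3 or more other libraries.

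A known landmark of ATF4 targets is the C/EBP-ATF response element. Its core was searched in RefSeq promoters (GRCm38.p6, 250 bases before to 50 after a start site, of which a gene can have several) as TGATGNAA on the gene's strand or TTNCATCA, the same letters on the other strand. Of well-covered genes with a promoter in the table, it was present in 13 of 290 with lower efficiency (4.48%), in 5 of 369 with higher efficiency (1.36%) and in 2.13% of those not called, and in 4.51% of all 27025 genes with a promoter in the table. Counted by gene, with a match in any of its promoters, it was found in 3 of 15 of the stress response list and in 5 of 13 of the synthetases. The stretches below are printed to show the element near a start site of 5 genes that fell and of Got1, which was not called. Those 5 are among the 13 genes above, so that share overlaps the lists. Not every synthetase with a match is printed. The stretches run 5' to 3' on the gene's strand with the element in capitals. They lie at chr6:7693210-7693248 (minus strand) for Asns, chr8:94386301-94386340 (plus) for Herpud1, chr15:11399659-11399689 (minus) for Tars, chr6:55037955-55037994 (plus) for Gars, chr8:111033714-111033753 (plus) for Aars and chr19:43524684-43524723 (minus) for Got1.
Asns: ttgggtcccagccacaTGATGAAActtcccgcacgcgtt
Herpud1: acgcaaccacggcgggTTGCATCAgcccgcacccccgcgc
Tars: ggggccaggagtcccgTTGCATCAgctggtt
Gars: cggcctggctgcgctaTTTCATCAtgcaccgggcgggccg
Aars: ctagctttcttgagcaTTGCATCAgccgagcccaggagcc
Got1: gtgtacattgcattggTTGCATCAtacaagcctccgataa
The element starts 23 bases before the transcript start that the promoter table uses in Asns, 112 in Herpud1 and Aars, 15 in Tars, 30 in Gars and 102 in Got1. For Aars that start lies inside the gene's RefSeq span (chr8:111027778-111055569), which begins further upstream. A match is a description of letters in this window and not a bound site, and promoters were matched for 81.5% of well-covered genes.

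Genes of oxidative phosphorylation that were called fell, with 1 exception, where nuclear-encoded, and rose where mitochondrially encoded. Of 62 well-covered nuclear-encoded genes, which supply most subunits of the respiratory complexes, 23 fell, 1 rose and 38 were not called, with a median of -0.19. Input was higher in KO for 31 of them and lower for 0, and footprints were higher for 9 and lower for 18. Over all well-covered genes the shares were 10.1% higher and 7.97% lower in efficiency, 8.41% and 7.75% in input, and 18.6% and 14.5% in footprints. Of the 5 well-covered genes of the mitochondrial genome 5 rose and 0 fell, with a median of 0.64. These genes are translated by mitochondrial ribosomes and not by the cytosolic subunit that METTL5 modifies. Cycloheximide does not stop mitochondrial ribosomes. Calls of nuclear-encoded genes that fell numbered 4 without the variance trend and 16 to 27 with any 1 library left out, and of mitochondrially encoded genes that rose 4 without the trend and 3 with edgeR.

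Among the nuclear-encoded genes, Atp5j2 (chr5:145183704-145191541), a membrane subunit of ATP synthase, had 2671 and 2605 footprint reads in KO, against 3766 and 3938 in WT. Its input held 766 and 746 in KO, against 620.5 and 665 in WT. The log2 change of efficiency was -0.78 ± 0.061 (limma adjusted p = 6.28e-05). Uqcrh of complex III had 1728 and 1704 footprint reads in KO against 2319 and 2331 in WT, and 711 and 751 input reads in KO against 604 and 604 in WT, a change of -0.71. For these 2 genes no footprint library of KO reached the lowest of WT, and no input library of WT reached the lowest of KO. The complex I subunits Ndufb10 (-0.75) and Ndufa13 (-0.82) fell too, the call for Ndufa13 being lost without WT input replicate 2. So did Cox5a of complex IV (-0.44), Cyc1 of complex III (-0.39), Sdhb of complex II (-0.35) and the catalytic ATP synthase gene Atp5b (-0.24). Ndufab1 (0.44), which also serves as the mitochondrial acyl carrier protein, was the member that rose, and its call was lost without WT footprint replicate 1 or any 1 input library.

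The mitochondrially encoded mt-Nd5, a complex I subunit, had 1063 and 1146 footprint reads in KO, against 697 and 749 in WT, and 7227 and 7260.2 input reads in KO, against 8992 and 9108 in WT. Its efficiency rose by 0.93 ± 0.060 (limma adjusted p = 1.93e-05). The complex I gene mt-Nd1 rose by 0.82, the complex IV gene mt-Co1 by 0.61 and the cytochrome b gene mt-Cytb by 0.32. For these 4, footprints were higher and input lower in KO, and the input change of mt-Co1 (-0.10, adjusted p = 0.0992) did not pass. mt-Nd6, the gene on the other strand of the mitochondrial genome, had 1054 and 1128 footprint reads in KO, against 1094 and 1104 in WT, which overlapped. Its input was 1435 and 1439 in KO, against 2234 and 2276 in WT, so its rise of 0.64 came with an input change of -0.65. No source used here says whether counting used strand, so reads from the opposite strand at mt-Nd6 cannot be told apart from its own. The 2 mitochondrially encoded genes that were tested but not well-covered, mt-Nd2 (1.10) and mt-Nd4 (0.95), rose as well.

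**Figure D3:**
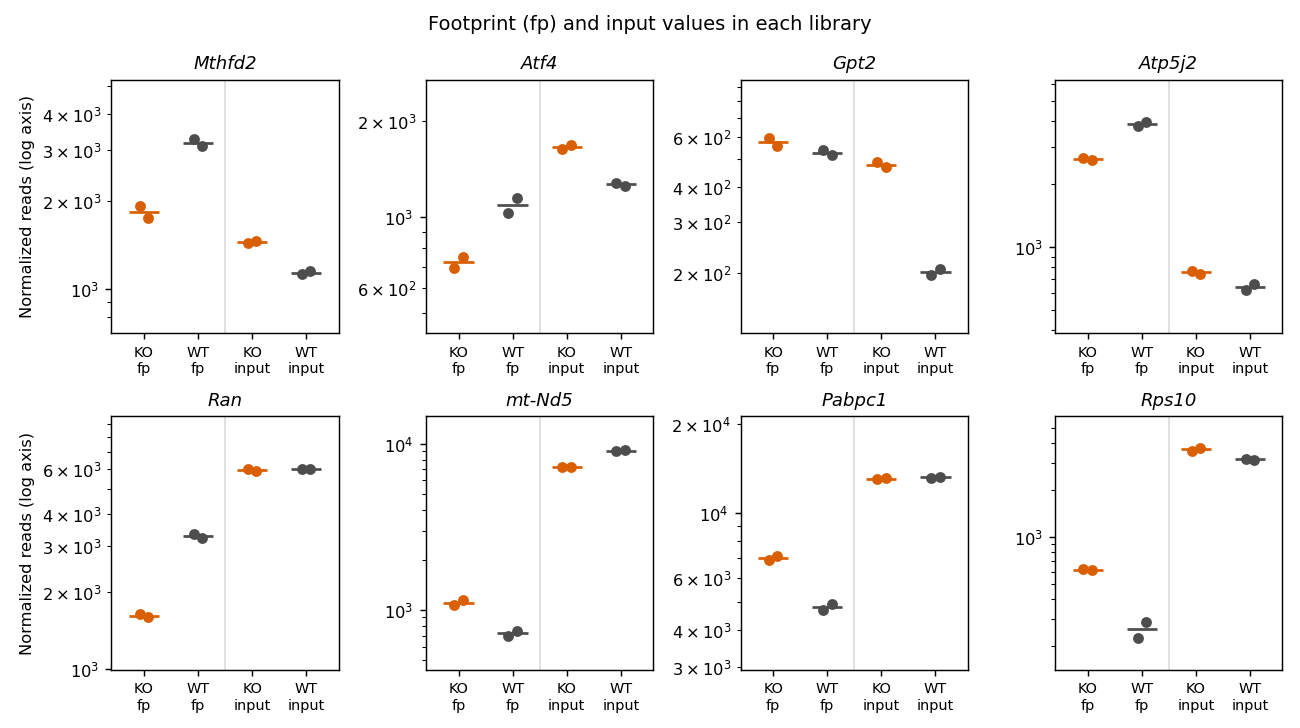
Normalized reads (y axis, log scale, each panel on its own range) in every library for 8 genes, with orange points for KO, grey points for WT, bars at the mean of 2 libraries, and footprints (fp) left of input. In Mthfd2, Atf4 and Atp5j2 footprints were lower and input higher in KO, in Gpt2 mainly input and in Ran, Pabpc1 and Rps10 mainly footprints differed, and in mt-Nd5 footprints were higher and input lower in KO.

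Genes of the cytosolic ribosome did not move one way. Of 34 well-covered ribosomal protein genes 9 rose and 11 fell, against 10.1% and 7.97% of all well-covered genes. Their median was -0.06, with a range from -1.58 to 1.08. Rpl6 (chr5:121204501-121209241) had 206 and 198 footprint reads in KO, against 521 and 570.1 in WT, and 6359 and 6602 input reads in KO, against 5859 and 5779 in WT. It changed by -1.58 ± 0.067 (limma adjusted p = 2.34e-06). Rps10 (chr17:27630415-27635244) had 623 and 614 footprint reads in KO, against 227 and 287 in WT, and 3597 and 3720.0 input reads in KO, against 3177 and 3148 in WT, a change of 1.06 ± 0.12. Both had few footprints for their input, with a ratio of 0.0311 in KO and 0.0938 in WT for Rpl6 and of 0.169 in KO and 0.0813 in WT for Rps10.

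That low ratio was common in the family, as were named pseudogenes. Of the 34 genes, 25 had a ratio under 0.5 over all libraries, of which 8 rose and 8 fell, and RefSeq lists a pseudogene named after 21 of those 25 (84%). Rpl6 and Rpl41 (0.72) have a low ratio and 0 named pseudogenes. Predicted loci were not counted, and the likeness of copies was not measured. Among all 460 well-covered genes with a ratio under 0.5 the share with a named pseudogene was 8.91%, and among the 4084 others 1.52%. Efficiency rose for 80 and fell for 27 of those 460, and rose for 377 and fell for 335 of the 4084 others. Of the 9 ribosomal protein genes with a ratio of at least 0.5, 1 rose and 3 fell. Members of that kind with opposite changes were Rps19 (-0.87), which has 13 named pseudogenes, with 3425 and 3636 footprint reads in KO against 5534 and 5476 in WT, and Rps21 (0.42), with 1831 and 1964 in KO against 1174 and 1223 in WT. No source used here says how reads with several matches were treated, so values of genes with near-identical copies are uncertain. The part of shared reads in these changes was not tested.

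Other mRNAs of the translation machinery were examined in 4 lists. Of 17 well-covered elongation factors and other mRNAs with a terminal oligopyrimidine start, 7 rose and 0 fell, with a median of 0.12, and footprints were higher in KO for 13 and lower for 0. Over all well-covered genes 10.1% rose and 7.97% fell in efficiency, and 18.6% were higher in footprints. Pabpc1 (chr15:36595658-36609581), the poly(A)-binding protein, had 6933 and 7119 footprint reads in KO, against 4699 and 4911 in WT, while its input overlapped, with 12978 and 13103 in KO against 13082 and 13252 in WT. Its efficiency rose by 0.56 ± 0.033 (limma adjusted p = 1.13e-05). The elongation factor genes Eef1a1 (0.34), Eef1d (0.30) and Eef2 (0.27) rose, as did Npm1 (0.29). Without the variance trend 1 of the 17 rose, and 5 to 9 rose when any 1 library was left out, while 2 fell without KO footprint replicate 2, with edgeR and with libraries centred on their median. Among 34 initiation factors 5 rose and 4 fell, among them Eif4g1 (0.28), the scaffold of the cap-binding complex, and Eif4h (-0.55), which stimulates the helicase eIF4A, and 2, 3, 2 and 2 rose without KO input replicate 1 and 2 and WT input replicate 1 and 2. Without either KO footprint replicate 8 rose and 7 fell. Of 55 ribosome biogenesis factors 12 rose and 2 fell (median 0.11), among them Heatr1 (0.40) and Nop58 (0.34), and 4, 6, 5 and 5 rose and 0 fell without KO input replicate 1 and 2 and WT input replicate 1 and 2. Of 49 mitochondrial ribosomal proteins 2 rose and 6 fell (median -0.07), with 3 lower calls without either KO input replicate, 0 without the variance trend and 11 with edgeR. The 2 higher calls became 1 or 0 without either WT footprint replicate or any 1 input library.

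Several lists outside translation also had unequal numbers of calls. Efficiency rose for 10.1% and fell for 7.97% of all well-covered genes. These shares differed with input level and genomic span, as given below, and no gene list was matched for either. Among 38 G2 and mitosis genes, 11 had higher and 2 lower efficiency (median 0.17). Cenpf, a kinetochore protein, had 1859.7 and 1896 footprint reads in KO, against 1369 and 1418 in WT, and 1678 and 1707 input reads in KO, against 1847 and 1756 in WT, a change of 0.52. The checkpoint gene Mad2l1 fell by 0.47. Of 22 chaperones of the CCT and heat shock families 9 rose and 1 fell (median 0.14). Hsp90aa1 rose by 0.55, with 4379 and 4153 footprint reads in KO against 3349 and 3386 in WT and lower input in KO, while its cochaperone Ahsa1 fell by 0.60. Of 49 nuclear pore and transport genes 13 rose and 2 fell (median 0.13), and 7, 8, 7 and 7 rose without KO input replicate 1 and 2 and WT input replicate 1 and 2. Ranbp2 (0.63), Ipo7 (0.49) and Nup210 (0.46) rose. Without the variance trend 1 gene rose in each of these 3 lists.

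Ran (chr5:129020156-129024322), the small GTPase that gives nuclear transport its direction, went the other way from most of that list. It had 1628 and 1586 footprint reads in KO, against 3340.2 and 3239 in WT, while its input did not differ, with 6013 and 5918 in KO and 6012 and 5999 in WT. The change was -1.02 ± 0.036 (limma adjusted p = 6.39e-07).

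Pigment genes, which mark this cell line, were mixed. Of 22, 9 rose and 3 fell, against 10.1% and 7.97% of all well-covered genes, with a median of 0.04. Without the variance trend 1 rose and 0 fell. Tyrp1 (chr4:80834123-80851736), an enzyme of melanin synthesis, had 53659 and 53754 footprint reads in KO, against 34258 and 34400.0 in WT, and 31603 and 31109 input reads in KO, against 27148 and 27412 in WT. It rose by 0.44 ± 0.015 (limma adjusted p = 6.39e-07). The receptor tyrosine kinase gene Met (0.46), tyrosinase (Tyr, 0.28) and the lineage transcription factor Mitf (0.32) rose. Mlana, a melanosome protein, fell by 0.34, and 1 member fell without KO input replicate 1 or WT input replicate 2, against 3 with all libraries. Of 23 genes of cholesterol and fatty acid synthesis 6 rose and 0 fell (median 0.17), among them Cyp51 (0.42) and Fasn (0.29), and 3 rose without any 1 input library and 0 without the variance trend.

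Genes of the unfolded protein response, a related response to misfolded proteins, were called in both directions. Of 30, 7 rose and 4 fell, against 10.1% and 7.97% of all well-covered genes. Their median was 0.00, and 4 rose without any 1 input library. Herpud1 (-0.95) had the largest change of these, and the chaperone gene Hspa5 rose by 0.14. The remaining lists with at least 20 well-covered members had 10 higher and 9 lower of 70 (splicing), 3 and 8 of 46 (lysosome), 5 and 4 of 40 (DNA replication), 6 and 1 of 36 (extracellular matrix), 2 and 5 of 33 (proteasome), 3 and 1 of 27 (antioxidant enzymes) and 3 and 1 of 27 (zinc finger genes of the Zfp series). Smaller lists had 6 higher and 1 lower of 18 (glycolysis), 1 and 1 of 15 (mitochondrial import), 1 and 0 of 13 (m6A writers, erasers and readers), 0 and 4 of 10 (mitochondrial carriers of the SLC25 family), 3 and 0 of 9 (iron and polyamine genes), 1 and 2 of 8 (p53 targets), 0 and 2 of 6 (immediate early genes), 1 and 0 of 5 (rRNA-modifying partners) and 0 and 0 of 3 (interferon genes). In the lists of this paragraph other than the interferon genes, leaving out 1 library moved at least 1 of the 2 counts by over 1.5 times, as for splicing (3, 1, 3 and 1 lower without KO input replicate 1 and 2 and WT input replicate 1 and 2), lysosome (5 lower without KO input replicate 2 or WT input replicate 1), extracellular matrix (10 higher without KO footprint replicate 1 and 2 or 3 without an input library) and proteasome (1 lower without any 1 input library). None of the 37 replication-dependent histones tested was well-covered, and 3 of them rose and 9 fell, against 1.31% and 2.12% of all tested genes that were not well-covered.

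**Figure D4:**
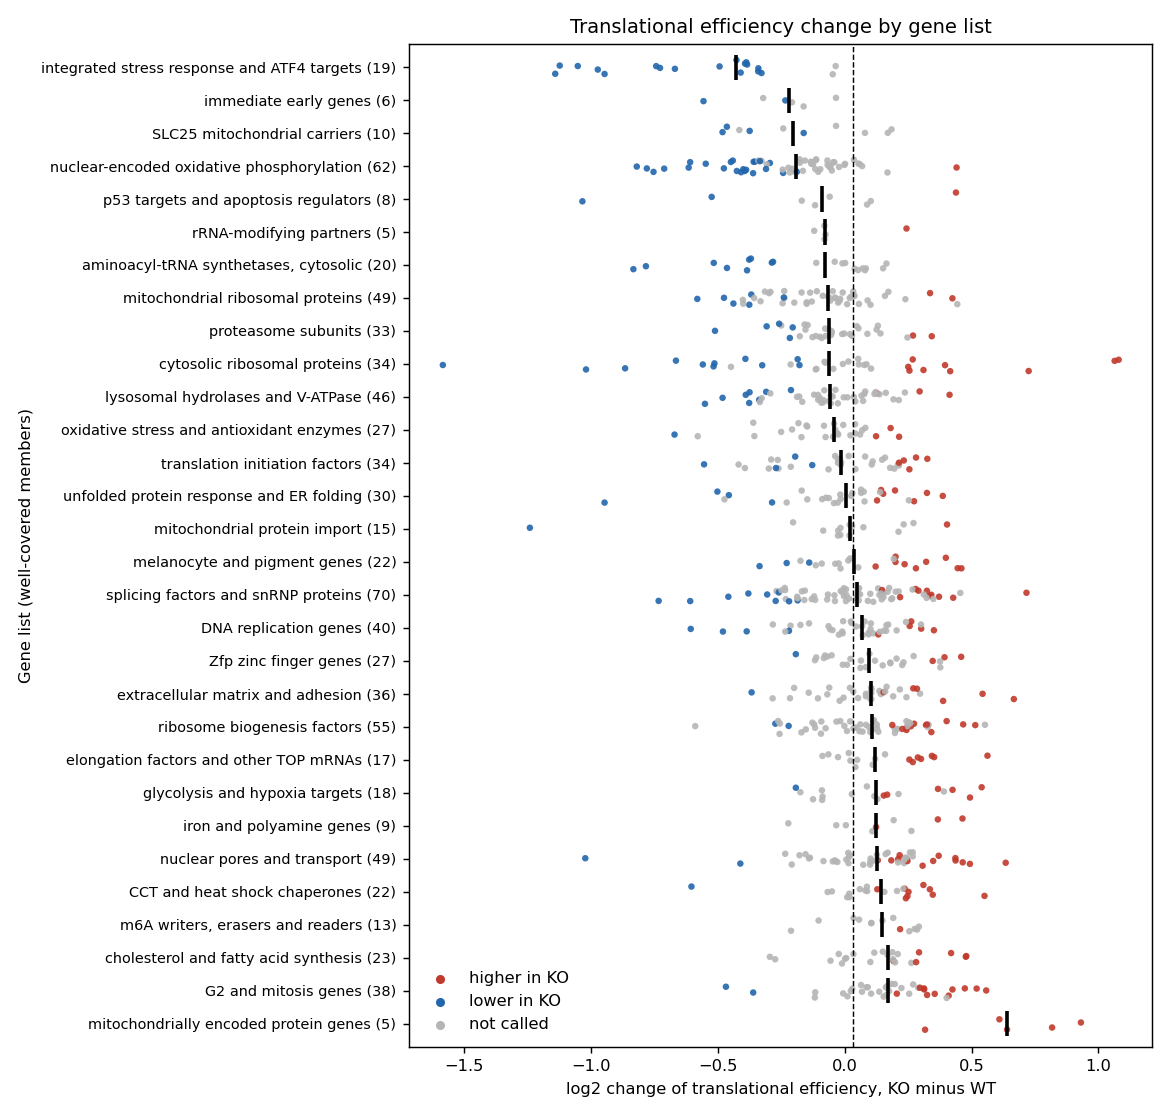
Log2 change of translational efficiency, KO minus WT (x axis), for the well-covered members of each gene list with at least 5 of them (y axis, number of members in brackets). Each point is a gene, red for higher, blue for lower and grey for not called, the thick bar is the list's median and the dashed line the median of all well-covered genes (0.030), and the list medians run from -0.43 (stress response) to 0.64 (mitochondrially encoded).

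Some of the largest single changes were in genes with other roles. Tomm22 (chr15:79670868-79672862), a receptor of the mitochondrial import channel, had 171 and 209.7 footprint reads in KO, against 388 and 517 in WT, and overlapping input of 663 and 681 in KO against 683 and 656 in WT. It changed by -1.24 ± 0.18 (limma adjusted p = 0.0029). Behind this lay 60 and 71 footprint reads in KO and 183 and 225 in WT. Another import receptor, Tomm70a, rose by 0.40. The apoptosis effector Bax (chr7:45461695-45466903) had 663 and 635 footprint reads in KO, against 1161 and 1092 in WT, and 452 and 443 input reads in KO, against 372 and 386 in WT, a change of -1.03 ± 0.081. Mcl1, an inhibitor of apoptosis of the same family, rose by 0.44. Fcf1, which acts in processing of the small subunit RNA, fell by 0.92. Its footprint reads numbered 65 and 63 in KO and 162 and 133 in WT.

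Large increases outside the mitochondrial and ribosomal protein genes included those of Casp8ap2 (0.84), Frrs1 (0.80), Hmcn1 (0.75), Fam208a (0.75), Ubb (0.73) and Trove2 (0.73). Hmcn1 (chr1:150562500-150993652), which encodes a very large extracellular matrix protein, had 1819.7 and 1814 footprint reads in KO, against 1344 and 1255 in WT, and 628 and 646 input reads in KO, against 759 and 778 in WT. Its footprints were higher and its input lower in each KO library than in each WT library. The call for Trove2 was lost without any 1 input library. Ubb has a named pseudogene and a repeated coding sequence, so its reads may be shared.

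Genes with lower efficiency tended to have a short genomic span, the distance from gene start to gene end in RefSeq, introns included. Its median was 42.3 kb for genes with higher efficiency, 14.3 kb for genes with lower efficiency and 29.6 kb for those not called. The quartiles overlapped, at 21.6 and 81.6 kb, 5.71 and 27.0 kb, and 14.1 and 62.7 kb in the same order. In 5 equal groups of the well-covered genes by span, with medians of 6.41, 16.2, 28.9, 51.5 and 116.5 kb, the median log2 change of efficiency was -0.088, -0.0096, 0.033, 0.081 and 0.11. The share of genes with lower efficiency was 17.4% in the shortest group and 2.09% in the longest, and the share with higher efficiency 5.62% and 13.7%. Input and footprints moved against each other along the span: input medians were 0.073 in the shortest and -0.057 in the longest group, and footprint medians -0.023 and 0.050. The medians of the longest and shortest group differed by 0.198, and by 0.189 to 0.213 over the 4 pairings of a KO with a WT replicate number. Among genes in none of the gene lists the medians of the shortest and longest group were -0.081 and 0.10. Genes are not replicates, so this is a description of these libraries. Span goes with other features of a gene, such as the length of its mRNA, and transcript and protein lengths were not used here.

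**Figure D5:**
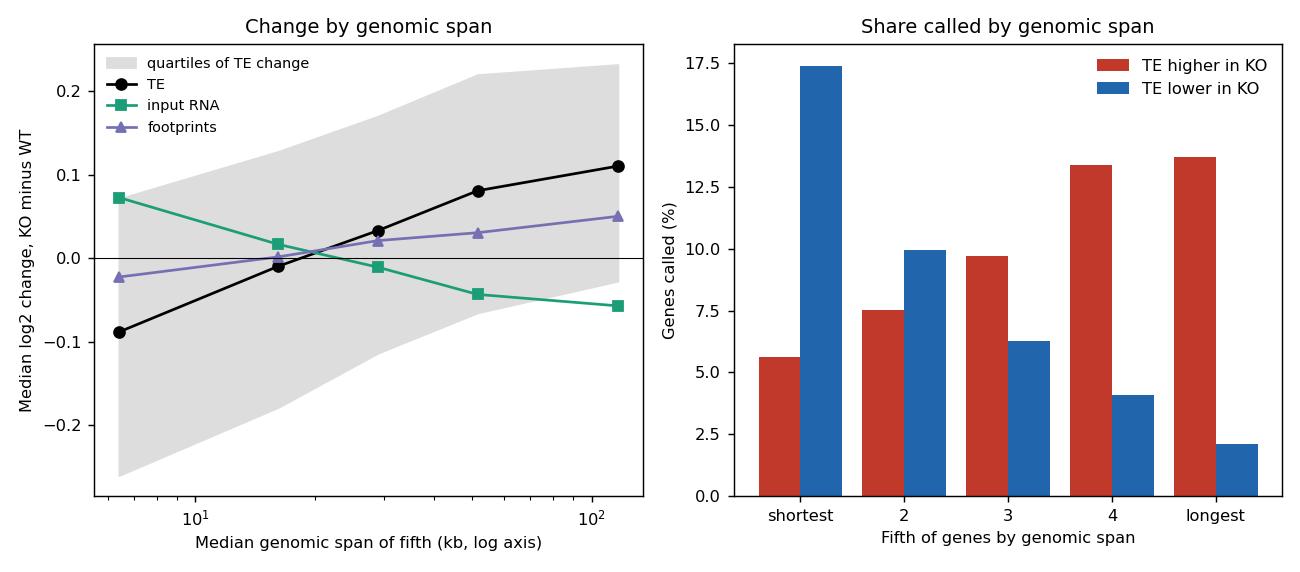
Left, median log2 change, KO minus WT (y axis), of efficiency (black circles, grey band for its quartiles), input RNA (green squares) and footprints (purple triangles) in 5 equal groups of well-covered genes by genomic span (x axis, kb, log scale). Right, the share of genes in each group (y axis, percent) with higher (red) and lower (blue) efficiency, with lower calls falling along the span to 2.09% in the longest group, against 17.4% in the shortest.

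The calls were also compared by promoter sequence, ratio and level. The median GC content of the promoter window was 63.7% for genes with higher efficiency, 60.0% for genes with lower efficiency and 62.0% for those not called. A start of 5 pyrimidines, a crude sign of a terminal oligopyrimidine mRNA, was found in 4.61%, 4.14% and 5.22%. The ratio of footprints to input over all libraries had a median of 1.11 in genes with higher efficiency, 1.49 in genes with lower efficiency and 1.16 in those not called. Mean input had a median of 1164 normalized reads in genes with higher efficiency, 760.9 in genes with lower efficiency and 509 in those not called. Calls were more frequent at higher input levels, with 24.9% higher and 13.1% lower in the highest of 5 equal groups by mean input and 2.86% and 4.62% in the lowest. The median log2 change of efficiency was 0.065 in the highest group and -0.014 in the lowest. Fewer reads give larger errors, and the part of this in these differences was not tested.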

How the data were processed

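The authors deposited 1 table of normalized read counts (10453 genes, 8 libraries), treated here as signal, whose footprint and input columns belong to single libraries. The submitters' processing notes name Bowtie and mm10. Counter, annotation, strand and the handling of reads with several matches appear in no source used here. Per the labels the input is given both as polyadenylated and as ribosomal RNA-depleted RNA. All values were whole multiples of 1 read within 0.001, so reads were recovered for edgeR 4.0.16 and DESeq2 1.42.0 as alternatives. The number of sample columns left unmapped was 0. Values were taken as log2(value + 1), which understates changes of low genes, and fitted with limma 3.58.1 in R 4.3.3 with a variance trend, for 10443 genes with a mean of at least 1 in both kinds of library. The interaction term gave the efficiency change, and input and footprint changes were contrasts of the same fit. Tests were two-sided, adjusted by Benjamini-Hochberg over all genes tested with a threshold of 0.05, and checked on simulated data. Errors are SE of the fit. The fit gives each gene 1 variance over both kinds, so its input and footprint changes have the same SE although footprint libraries held fewer reads. Errors may be understated for footprints and overstated for input. The numbers of footprint calls and of input calls are therefore not directly comparable. Replicates differed slightly more than counting noise (chi-square per degree of freedom 1.10 to 1.33). The 4544 genes, the 32 gene lists and the named-gene rule (the 12 largest changes each way without overlap, and up to 4 per list) were chosen with earlier results of these data known, and further list members are named after their values were seen. A gene that this rule picks is not reported here. Names, spans and promoters came from RefSeq GRCm38.p6 (10452 IDs matched the name table, and 16 symbols turned into dates were restored). Protein features planned for this comparison were not analysed here.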

Additional observations from a re-analysis of the deposited data

How the results depend on the processing

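No named gene changed direction in any of 2477 recomputed results (118 genes). Without the variance trend, 48 genes were higher and 85 lower over all genes tested, and 24 and 50 among well-covered genes, and 78 named calls were lost. With 1 library left out, counts ranged from 195 to 850 (higher, all genes), 215 to 869 (lower, all genes), 185 to 628 (higher, well-covered) and 182 to 518 (lower, well-covered) with the lowest without an input library. For all genes, without KO footprint replicate 1 and 2 there were 850 and 808 higher and 869 and 867 lower, and the cause was not tested. The median change ranged from 0.026 to 0.0347 in these fits, and was 0.0215 with libraries centred on their median, 0.0227 with edgeR's TMM scaling, and 0.0191 and 0.0387 for genes with a mean of at least 100 and 400. The longest and shortest span group differed by 0.193 to 0.2065 under every setting run. Replicate numbers did not pair the libraries (correlations of their deviations from -0.066 to 0.008). With the replicate block on the number, 429 well-covered genes were higher and 342 lower, and with footprint and input of the same number paired 481 and 373. edgeR called 563 and 494, and DESeq2, which gave an adjusted p to 8629 genes, 469 and 378. Other pseudocounts, filters, weights per kind of library and the removal of genes with a named pseudogene, the last chosen after seeing the data, moved no count by over 1.5 times. Footprint depth, a median of 215 to 298 reads per well-covered gene, limits what could be seen.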
